A study of Mus musculus with 4 samples.

Results

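B cell precursors were chosen by UMI counts (unique molecular identifiers, 1 per captured RNA molecule). The rule asked for cell barcodes with at least 3 UMIs of Vpreb1, Vpreb3 and Igll1 together. It also asked for at least 2 UMIs of the B cell receptor signalling genes Cd79a and Cd79b together. No UMI of Ighd and none of the T cell genes Cd3e, Cd3d and Cd3g was allowed. Of 33698 cells with at least 200 genes and under 10% mitochondrial UMIs, 147 met this rule. There were 25 in adenosine 1, 64 in adenosine 2, 49 in control 1 and 9 in control 2. The cells came from male C57BL/6J mice aged 20 months with a fracture, sampled 7 days after treatment with a microgel. In 2 libraries the microgel held adenosine, and in 2 control libraries it held none. The labels name bone marrow as the tissue and callus cells as the material, and do not give the number of mice behind each library. The library is therefore the unit of the tests below, and p-values do not measure the spread between mice. Red blood cells were lysed and viable cells were sorted before capture, per the labels. The libraries held 59503381 and 68117846 UMIs with adenosine and 58453640 and 32277757 UMIs in controls, and pairs of libraries shared 13 to 28 barcodes.

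In the marrow, B cells form in steps. Transcription factors such as Ebf1 and Pax5 commit a progenitor to the lineage, the recombinase of Rag1 and Rag2 joins the gene segments of the immunoglobulin heavy chain, and the enzyme encoded by Dntt adds bases at the joints. The new heavy chain is first carried to the surface with a stand-in light chain made of the Vpreb1 and Igll1 proteins, which drives division. The Rag genes then rearrange a true light chain before the cell leaves as an immature B cell. Interleukin 7, read by the receptor chain Il7r, supports the early steps in mice.

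Vpreb1 and Igll1 are neighbours in the genome, and Vpreb3 lies on another chromosome. On GRCm38, in the GENCODE M21 annotation, Vpreb1 spans chr16:16868403-16870843 and Igll1 chr16:16860671-16863985, both on the minus strand and 4417 bases apart, while Vpreb3 lies at chr10:75943057-75949657 on the plus strand. Vpreb1 and Igll1 were detected in the same cells, as described below, and many precursors carried Vpreb3 without either. The start regions of these 3 genes, from 250 bases before to 50 after the start, are shown for that reason, 5′ to 3′ on the strand of the gene, from RefSeq on build GRCm38.p6. RefSeq places the starts of Vpreb1 and Vpreb3 inside the spans given above, which begin further upstream, so the windows of these genes follow the RefSeq start and not the start of the span. Capitals mark the letters CAGGTG or their reverse complement CACCTG, a match to the E box bound by E2A, the product of Tcf3. The Vpreb1 window is chr16:16869206-16869505, with the match at 88 bases before the start, the Igll1 window is chr16:16863936-16864235, with the match at 8 bases before the start, and the Vpreb3 window, chr10:75948050-75948349, held no match.
Vpreb1: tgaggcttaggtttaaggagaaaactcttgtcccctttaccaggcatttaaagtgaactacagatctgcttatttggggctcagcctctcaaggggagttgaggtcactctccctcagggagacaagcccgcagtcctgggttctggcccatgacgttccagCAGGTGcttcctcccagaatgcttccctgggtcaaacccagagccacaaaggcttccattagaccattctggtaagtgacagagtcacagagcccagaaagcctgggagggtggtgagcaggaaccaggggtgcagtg
Igll1: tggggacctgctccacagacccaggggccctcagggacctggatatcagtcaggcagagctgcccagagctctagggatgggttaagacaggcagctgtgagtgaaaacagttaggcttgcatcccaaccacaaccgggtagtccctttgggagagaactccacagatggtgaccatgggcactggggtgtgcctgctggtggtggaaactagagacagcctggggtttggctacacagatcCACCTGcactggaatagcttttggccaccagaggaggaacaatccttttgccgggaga
Vpreb3: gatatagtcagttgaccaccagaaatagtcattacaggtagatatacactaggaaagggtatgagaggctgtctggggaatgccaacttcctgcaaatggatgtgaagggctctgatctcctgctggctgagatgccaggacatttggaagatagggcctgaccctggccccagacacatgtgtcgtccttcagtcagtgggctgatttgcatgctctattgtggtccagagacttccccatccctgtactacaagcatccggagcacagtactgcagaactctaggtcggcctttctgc
The same letters stood on either strand in 20% of 27025 promoters of this length, so the matches describe the windows and no more. A second motif, CCCNNGGG, read as a match to Ebf1 on either strand, stood in 13.4% of promoters, in the Igll1 window at 231 bases before the start, and in neither of the other windows.

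The label was checked against genes that the rule did not use. Ebf1 was detected in 143 of 147 members and Pax5 in 131. In all, 15 members stood apart: they carried at least 10 UMIs of the plasma cell genes Xbp1, Jchain and Derl3 together, with 24 to 2623 such UMIs against at most 8 in any other member. These 15 are called plasma-marker barcodes here, by a limit set after the data were seen. Immunoglobulin genes made up 8.30% to 68.6% of their UMIs, against at most 5.77% in the other 132 members. All of them carried Vpreb3 (3 to 13 UMIs) and neither Vpreb1 nor Igll1, and Pax5 was detected in 0 of 15, while Jchain was detected in 15 of 15. The leading genes of these 15 barcodes go against the label, and they are given no cell type name.

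They were not spread evenly. There were 11 in adenosine 1, 2 in adenosine 2, 0 in control 1 and 2 in control 2, and they held 73.3%, 8.90%, 0% and 49.6% of the UMIs of all members in these libraries. Genes outside the naming rule of the processing notes were picked after their values were seen. A gene that they lack stands higher in the summed UMIs of adenosine 1 once they are left out, so values without them are given beside the counts of calls and the main genes below. Of the 132 other members, 132 carried Ebf1 and 131 carried Pax5, which places them in the B lineage. Mature naive B cells express both factors too, so these do not check the stage, which is read from other genes below.

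**Figure D1:**
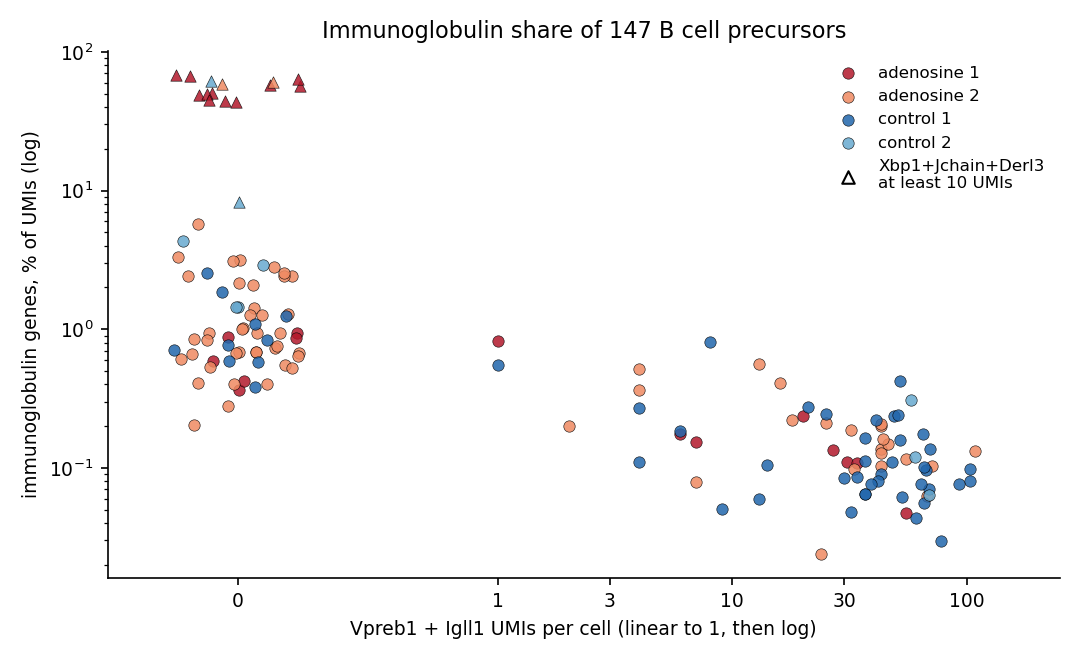
Share of UMIs from immunoglobulin genes (vertical axis, percent, log scale) against Vpreb1 plus Igll1 UMIs (horizontal axis, linear to 1 and log above, points at 0 spread sideways) in each of the 147 B cell precursors, coloured by library. Triangles are the 15 plasma-marker barcodes, which lie between 8.30% and 68.6%, and the highest circle lies at 5.77%.

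Markers of other cells were present at levels that differed by list. Summed over 10 neutrophil markers, precursors held 7395 and 21735 CPM (UMIs per 1000000 UMIs of the class) with adenosine and 10254 and 3733 CPM in controls. Left without the plasma-marker barcodes, these sums were 23025 and 23648 CPM with adenosine and 10254 and 6288 CPM in controls. Neutrophils themselves held 227540 and 288107 CPM with adenosine and 262078 and 146619 CPM in controls. At least 2% of UMIs came from S100a8 and S100a9 in 13 members. The 10 monocyte and macrophage markers summed to 2153 and 2436 CPM with adenosine and 1012 and 124 CPM in controls without the plasma-marker barcodes. In neutrophils they summed to 3838 and 6834 CPM with adenosine and 5505 and 3295 CPM in controls. The 10 plasmacytoid dendritic cell markers summed to 1449 to 2533 CPM without those barcodes. They summed to 1726 to 2581 CPM in mature naive B cells and 202 to 220 CPM in neutrophils. The 10 T and NK cell markers summed to at most 58.4 CPM in the members without plasma-marker barcodes, and 5 of the 10 were at 0 in all 4 libraries. Cd3e, Cd3d and Cd3g are among these 5 and were set to 0 by the rule, so only the other markers of the list are informative. The 10 progenitor markers summed to 161 to 209 CPM in the same members, again with 5 of 10 at 0. In neutrophils, which serve as a measure of free RNA, Vpreb1 was found in 0.217% and 0.211% of cells with adenosine and 1.01% and 0.0433% in controls, at a median depth of 2796 to 3163 UMIs.

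The rule's limits cut through sparse counts. With 3 UMIs of Vpreb1, Vpreb3 and Igll1 together, 10 members lay just inside, and with 2 UMIs, 11 barcodes lay just outside. For Cd79a and Cd79b, 5 members had 2 UMIs and 5 barcodes with 1 UMI were left out. The condition on Ighd removed most: 80 barcodes that met every other condition had 1 Ighd UMI, of which 41 carried Vpreb1 or Igll1, and 126 had more than 1. Members had a median of 6529 UMIs, and the rule asks for fixed numbers of UMIs. A cell with more UMIs thus meets the minimum counts more easily. It meets the conditions of no Ighd and no T cell gene UMI less easily.

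The 132 members without plasma markers fell into ranges by Vpreb1 and Igll1 and by Ms4a1, which encodes CD20, a surface protein of later B cells. In 72 cells Vpreb1 or Igll1 was detected, and both were detected in 66 of these. In 38 cells only Vpreb3 was detected, with no Ms4a1, and in 22 only Vpreb3, with Ms4a1. Vpreb2, a near copy of Vpreb1 whose reads may be shared with it, was detected in 55 cells, each of which also had Vpreb1. The median UMI count per cell was 9999 UMIs in the cells with Vpreb1 or Igll1, 4049 UMIs in the Vpreb3-only cells without Ms4a1 and 3770 UMIs in those with it, so a gene has a higher chance of being seen in the cells with Vpreb1 or Igll1.

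The libraries held these ranges in different proportions. Vpreb1, which the rule used, stood at 220 and 875 CPM over all members with adenosine and 1607 and 812 CPM in controls, and it is given as a description. Cells with Vpreb1 or Igll1 numbered 8 of 25 members in adenosine 1, 22 of 64 in adenosine 2, 39 of 49 in control 1 and 3 of 9 in control 2. That is 32% (exact 95% interval 14.9 to 53.5) and 34.4% (22.9 to 47.3) with adenosine and 79.6% (65.7 to 89.8) and 33.3% (7.49 to 70.1) in controls. Control 1 was high, and control 2 lay between the adenosine libraries, so the groups overlapped. With those barcodes left out the shares were 57.1% and 35.5% with adenosine and 79.6% and 42.9% in controls. Vpreb3-only cells without Ms4a1 numbered 6 and 25 with adenosine and 6 and 1 in controls, and those with Ms4a1 numbered 0 and 15 with adenosine and 4 and 3 in controls.

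**Figure D2:**
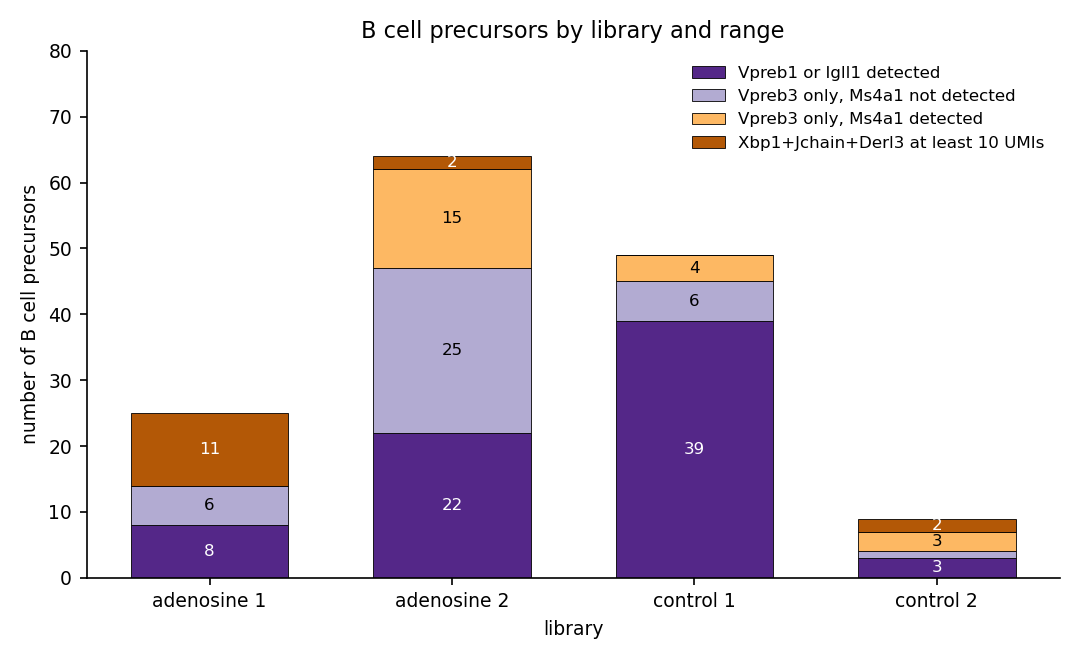
Number of B cell precursors (vertical axis) in each library, stacked by range from cells with Vpreb1 or Igll1 (bottom) to plasma-marker barcodes (top). Cells with Vpreb1 or Igll1 make up 39 of 49 precursors in control 1, and plasma-marker barcodes 11 of 25 in adenosine 1.

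Genes of the early steps were seen in the range with Vpreb1 or Igll1. Dntt, the enzyme that adds bases at the joints, was detected in 53 of 72 cells with Vpreb1 or Igll1, in 0 of 38 Vpreb3-only cells without Ms4a1 and in 0 of 22 with it. Kit, the receptor for stem cell factor, was detected in 14 of 72, 0 of 38 and 0 of 22. Lef1, a transcription factor of the Wnt pathway that supports early B cell growth, was detected in 65 of 72, 13 of 38 and 2 of 22. The order of these 3 genes is thus the same, with the highest share beside Vpreb1 or Igll1. Counts of 0 of 38 and 0 of 22 cells limit what can be said at the UMI counts of these cells.

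Other genes reached further. Il7r was detected in 59 of 72 cells with Vpreb1 or Igll1, 32 of 38 Vpreb3-only cells without Ms4a1 and 5 of 22 with Ms4a1. Rag1 was detected in 37 of 72, 28 of 38 and 3 of 22 cells, and Rag2 in 35 of 72, 11 of 38 and 0 of 22. Rag1 was thus seen in the largest share in the Vpreb3-only cells without Ms4a1, which held fewer UMIs per cell than those with Vpreb1 or Igll1. Il7r and Ms4a1 were seldom seen together: of 132 cells, 88 had Il7r alone, 19 Ms4a1 alone, 8 both and 17 neither. The immunoglobulin share of UMIs had a median of 0.118% in cells with Vpreb1 or Igll1, 0.685% in Vpreb3-only cells without Ms4a1 and 2.28% in those with it. Ebf1 was detected in 72 of 72, 38 of 38 and 22 of 22 cells, and Pax5 in 72 of 72, 37 of 38 and 22 of 22. In the 22 Vpreb3-only cells with Ms4a1 the stage genes go against the name of precursors: Dntt and Rag2 were not detected, Rag1 was in 3, Il7r in 5 and none was dividing, with Ms4a1 at 2132 CPM. These cells are called by their rule alone, and no test below leaves them out as a range.

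**Figure D3:**
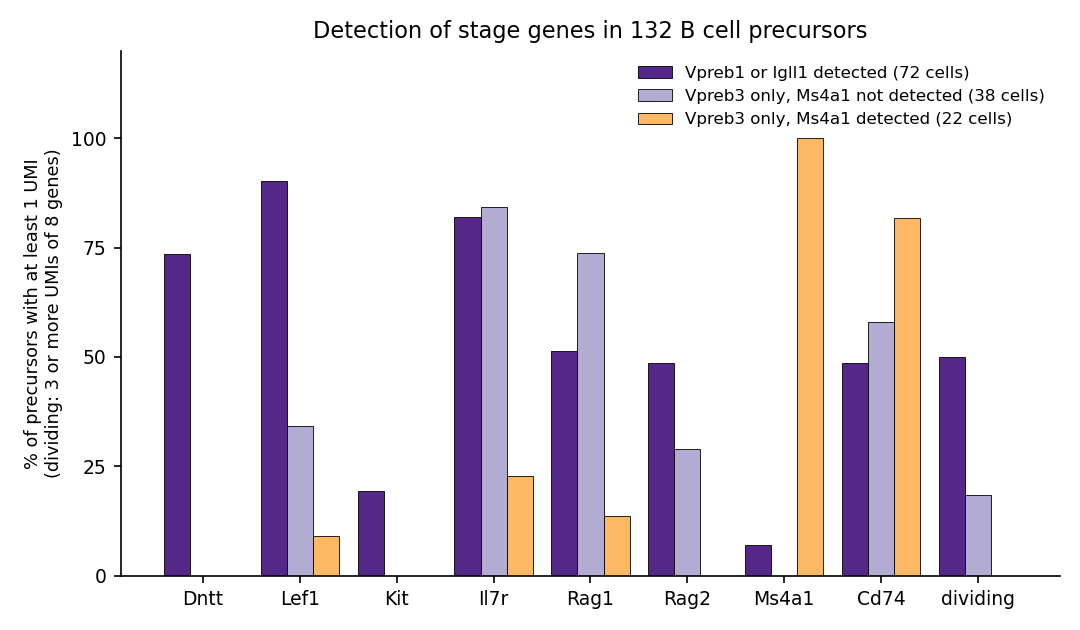
Percent of precursors with at least 1 UMI of each gene (vertical axis), and percent dividing, in the 3 ranges of the 132 members without plasma markers. Dntt and Kit are seen only in the first range, Rag1 is highest in the second, and Ms4a1 splits the last 2 by definition. Cells of the first range held more UMIs per cell.

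Dividing cells were those with at least 3 UMIs of 8 mitotic genes (Mki67, Top2a, Cdk1, Birc5, Ccnb1, Ccnb2, Cenpf and Nusap1). They numbered 36 of 72 cells with Vpreb1 or Igll1, 7 of 38 Vpreb3-only cells without Ms4a1 and 0 of 22 with Ms4a1. All 7 in the second range came from adenosine 2, where they were 7 of 25 cells. In that library 15 members of any range were dividing, and 6 with the top doublet scores removed. With the plasma-marker barcodes left out, Rag1 was lower in dividing cells in each library where it was seen. It stood at 0 CPM in dividing and 608 CPM in other precursors of adenosine 1, at 33.6 and 228 CPM in adenosine 2, and at 78.4 and 555 CPM in control 1. In control 2, with 1 dividing cell of 7, no Rag1 UMI was seen. Among cells with Vpreb1 or Igll1, dividing cells held a median of 17619 UMIs and other cells 5973 UMIs. CPM is scaled to the total UMIs, and these values carry no test.

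Vpreb1 or Igll1 positive precursors were next compared with Vpreb3-only precursors within adenosine 2 and control 1, the 2 libraries with at least 10 cells of each. UMIs were summed per library and range, the genes of the rule and Vpreb2 were left out, and the edgeR quasi-likelihood test was used with the library as a block and Benjamini-Hochberg adjustment at 0.05. This fit leaves 1 residual degree of freedom, so its p-values rest mainly on spread pooled over genes and little on the spread between these 2 libraries. Of 4801 genes tested, 368 were called (7.67%), 185 higher (3.85%) and 183 lower (3.81%). Left without the plasma-marker barcodes, which are all Vpreb3-only, 420 of 4658 were (9.02%), 218 higher (4.68%) and 202 lower (4.34%). In the cells with Vpreb1 or Igll1, Dntt stood at 820 CPM in adenosine 2 and 527 CPM in control 1, while the Vpreb3-only cells of both libraries had no UMI. Over both libraries this is 482 UMIs against 0, at least 59.8-fold higher with 0 read as 3 counts over the group (adjusted p = 5.39e-20, higher in 2 of 2 libraries). Arpp21, which encodes a cAMP-regulated phosphoprotein, stood at 305 and 641 CPM against 0 and 0 CPM, at least 52.7-fold higher (adjusted p = 1.35e-14). Both genes are high in both libraries, and the ranges do not overlap.

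The same pattern of 0 UMIs in the Vpreb3-only cells held for the 10 other genes named as most higher: Pde4d, Gfra2, Mir99ahg, Auts2, Frmd6, Myl10, St6galnac3, Socs2, Ttll11 and Atp2b4, with bounds from at least 6.57-fold for Atp2b4 to at least 20.6-fold for Auts2. Pde4d breaks down cAMP, Gfra2 is a receptor for the growth factor neurturin, and Socs2 restrains cytokine signals. Among transcription factors, Lef1 stood at 1297 and 1516 CPM in the cells with Vpreb1 or Igll1 and at 74.2 and 55.2 CPM in Vpreb3-only cells, a log2 fold change of 4.21 ± 0.49 (SE, adjusted p = 3.28e-15). Erg, another early transcription factor, was higher by 4.43 ± 0.59 on the log2 scale (adjusted p = 2.75e-11).

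Lower in the cells with Vpreb1 or Igll1 were genes of later steps. All 5 tested immunoglobulin constant genes were called lower. Igkc, the kappa light chain, stood at 481 and 152 CPM in cells with Vpreb1 or Igll1 and at 37679 and 2265 CPM in Vpreb3-only cells, a log2 change of -5.14 ± 0.42 (adjusted p = 4.04e-30) that was -3.19 without the plasma-marker barcodes. Ighm, the mu heavy chain, was lower by -3.00 with them and -1.61 without them. Ms4a1 stood at 0 and 14.5 CPM against 476 and 525 CPM (log2 -5.73 ± 0.58, adjusted p = 8.56e-20). Il2ra, the alpha chain of the interleukin 2 receptor (CD25), a marker of small pre-B cells, stood at 8.59 and 0 CPM against 105 and 304 CPM (log2 -5.94 ± 0.87, adjusted p = 2.15e-09). Both are low in both libraries with no overlap.

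The other genes named as most lower were Col25a1, Reln, Agbl1, Klhl14, Rasgrp1, Fcmr, Brwd1, Ly6d, Tmem163 and Myzap. Col25a1, a collagen gene, had 0 UMIs in the cells with Vpreb1 or Igll1 and 34 in Vpreb3-only cells, at least 30.5-fold lower. Few cells carried it: 1 cell held 13 of its 18 UMIs in adenosine 2 and 1 cell 7 of 16 in control 1. Reln, known as a secreted guide of neurons, stood at 0 and 5.43 CPM against 289 and 1243 CPM. Over all members, 1 cell held 15 of 74 Reln UMIs in adenosine 2 and 1 cell 26 of 48 in control 1. Brwd1, a chromatin reader known in mice for its part in light chain rearrangement, stood at 8.59 and 5.43 CPM against 141 and 276 CPM (log2 -4.87 ± 0.76, adjusted p = 2.06e-08).

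By list, 15 of 33 tested cell cycle genes were called higher and 0 lower, with a median log2 of 1.45 against 0.05 over all genes. Mcm2, part of the replication helicase, stood at 167 and 94.1 CPM against 11.7 and 27.6 CPM. Of 9 recombination genes, Dntt, Hmgb1 and Hmgb2 were called higher and none lower, and Rag1 did not pass: it stood at 150 and 145 CPM against 102 and 773 CPM, with opposite directions in adenosine 2 and control 1 (adjusted p = 0.191). Of 14 genes of pre-B cell receptor signalling, Lyn, Syk, Blk and Fcrla were called lower and none higher. Of 18 transcription factors, 2 were called higher (Lef1, Erg) and 4 lower (Pou2af1, Bach2, Ikzf3, Spib). Ebf1 stood at 11856 and 10962 CPM against 9061 and 12320 CPM and was not called (log2 0.11 ± 0.34, adjusted p = 0.924). Of 14 mature B cell genes, 6 were called lower and none higher.

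These calls depend on few cells. With DESeq2 28 genes were called (0.583%), 3 higher (0.0625%) and 25 lower (0.521%), and with the top doublet scores removed 0 of 2871, where 371 had an unadjusted p under 0.05 with edgeR. UMIs per cell moved with the split, as given above, and its part in the result was not tested.

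Precursors were then compared with mature naive B cells. These carried at least 1 Ighd UMI, at least 2 Cd79a and Cd79b UMIs, and no UMI of Vpreb1, Vpreb3, Igll1 or the CD3 genes. They numbered 175 and 360 with adenosine and 153 and 30 in controls. Counts were summed per library and class in adenosine 1, adenosine 2 and control 1, since control 2 held under 10 precursors, and tested as above with the library as a block. Of 7501 genes, 1214 (16.2%) were called, 585 higher (7.80%) and 629 lower (8.39%). When scaled by library size alone, 337 were higher and 673 lower of 1010 called, with the median of all genes at -0.23. DESeq2 called 395 higher (5.27%) and 430 lower (5.73%). With the plasma-marker barcodes left out, edgeR called 2036 of 7869 (25.9%), 1087 higher (13.8%) and 949 lower (12.1%). The same limit was applied there to mature naive B cells, which took out 3 and 2 of them with adenosine and 0 in control 1. Calls numbered 528 without adenosine 2, 602 without control 1 and 1978 without adenosine 1. Of the 79 genes named for this comparison, 73 kept their direction and side of the threshold without the plasma-marker barcodes, and 6 passed newly. With a library left out, 12 of them no longer passed without adenosine 2 and 13 without control 1. Values below are for precursors and then mature naive B cells, and include the plasma-marker barcodes unless stated.

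The recombinase genes separated the classes in the 3 libraries of the fit. Rag1 stood at 56.0, 125 and 183 CPM in precursors of adenosine 1, adenosine 2 and control 1, and at 0, 0 and 1.36 CPM in mature naive B cells. The classes do not overlap in these 3 libraries. The counts of 195 and 1 UMIs give a ratio of 440 with an exact 95% counting interval of 78.0 to 17448. The log2 fold change was 8.16 ± 0.57 (SE, n = 3 libraries, adjusted p = 0.000521). Control 2, outside the fit with 9 precursors, lay the other way, at 0 CPM in precursors and 6.85 CPM in mature naive B cells. Left without the plasma-marker barcodes, Rag1 stood at 210, 137 and 183 CPM in precursors against 0, 0 and 1.36 CPM. Rag2, whose product pairs with that of Rag1, had 71 UMIs in precursors and 0 in mature cells, at least 53.3-fold higher. Dntt stood at 75.3, 391 and 494 CPM against 73.7, 3.04 and 2.72 CPM (log2 4.42 ± 1.18, adjusted p = 0.0406), so that adenosine 1 carried almost no difference with all members. With the plasma-marker barcodes left out it stood at 274, 429 and 494 CPM against 80.5, 3.14 and 2.72 CPM, higher in all 3 libraries (log2 4.50, adjusted p = 0.00155). With all members, the call was lost without adenosine 2 or control 1 and with doublets removed. In adenosine 1, 2 mature cells held all Dntt UMIs of their class. Of 11 recombination genes tested, 7 were called higher and 2 lower, with a median log2 of 2.33 against -0.01 over all genes. Lig4 and Xrcc6, of the end-joining step, and Hmgb1 and Hmgb2, which help the recombinase bind, were among the higher. Xrcc4 and Prkdc, of the same end-joining step, were lower by -0.99 and -0.98.

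Among 18 transcription factors, 5 were called higher and 4 lower. Lef1 stood at 202, 657 and 1427 CPM in precursors and 0.910, 4.26 and 8.16 CPM in mature naive B cells, a log2 fold change of 7.46 ± 0.35 (adjusted p = 0.00023). Every precursor value exceeded every mature value, and with the plasma-marker barcodes left out precursors stood at 758, 718 and 1427 CPM. Erg, Sox4, Myb and Tcf3 were the other 4, with log2 fold changes of 4.73, 4.55, 3.98 and 1.65, and each rose in 3 of 3 libraries. Myb is needed for early lymphoid growth, and Tcf3 encodes E2A. Bcl6, Irf8, Bcl11a and Ikzf3 were lower, by -1.26 to -1.88 on the log2 scale.

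The commitment factors behaved differently. Ebf1 stood at 3538, 10392 and 11045 CPM in precursors against 3460, 3426 and 4568 CPM, and was not called (log2 1.22 ± 0.37, adjusted p = 0.061). Without the plasma-marker barcodes its level was 12802, 11392 and 11045 CPM against 3772, 3537 and 4568 CPM, with no overlap, and was called (log2 1.51, adjusted p = 0.000413). Ebf1 marks the lineage in the label of these cells. Pax5 stood at 308, 855 and 905 CPM against 872, 890 and 1014 CPM (log2 -0.32 ± 0.26, adjusted p = 0.435). With the plasma-marker barcodes left out, Pax5 stood at 1153, 938 and 905 CPM against 952, 919 and 1014 CPM, higher in both adenosine libraries and lower in control 1, and was not called (log2 -0.03, adjusted p = 0.948).

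Receptors for growth signals moved in both directions. Il7r stood at 138, 389 and 279 CPM in precursors against 13.7, 7.31 and 5.44 CPM (log2 5.08 ± 0.38, adjusted p = 0.000521). Without plasma-marker barcodes it stood at 516, 427 and 279 CPM against 14.9, 7.54 and 5.44 CPM, so adenosine 1 became the highest library. Socs2, which restrains cytokine signals, was also higher (log2 4.09). Il2rg, the partner chain of Il7r, stood at 19.4, 47.0 and 23.8 CPM against 107, 198 and 133 CPM and was lower (log2 -2.12 ± 0.28, adjusted p = 0.00355). Jak1 and Flt3 were lower as well, by -1.34 and -2.17. Of early surface genes, Cd24a, Cd93, Bst1, Akap12 and Arpp21 were called higher and Cd2 and Cd38 lower, of 9 tested. Cd93, the antigen AA4.1 of immature B cells in mice, stood at 90.4, 117 and 163 CPM against 28.2, 6.70 and 15.0 CPM (log2 3.25 ± 0.36, adjusted p = 0.00206).

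Most of the other genes with the largest rises belong to no list. Gfra1, a receptor for the neurotrophic factor GDNF, stood at 73.2, 417 and 520 CPM in precursors and 0, 0 and 0 CPM in mature naive B cells, at least 409-fold higher, and at 274, 458 and 520 CPM in precursors without plasma-marker barcodes. Gfra2 had 173 UMIs against 0, at least 130-fold higher, and Myl10, a myosin light chain, 98 against 0, at least 73.6-fold higher. Both receptors share the coreceptor Ret and were seen in all 3 libraries. Cplx2, Arpp21, Selenom, Reln, Epb41l4b and Rrm2 complete the 12, with log2 fold changes from 4.87 to 7.17.

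**Figure D4:**
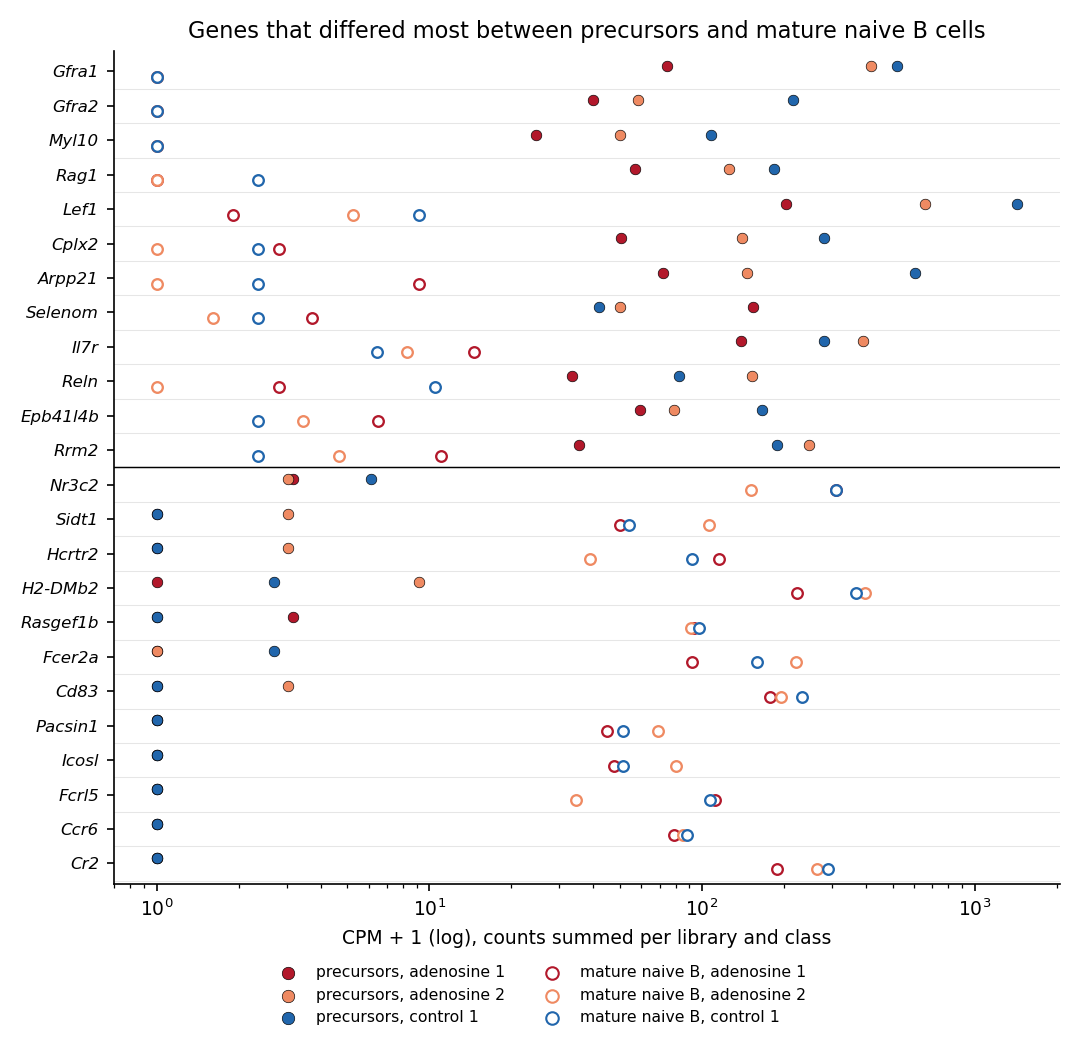
CPM plus 1 (horizontal axis, log scale) of the 24 genes named by size of change, with counts summed per library over all members, plasma-marker barcodes included. Filled points are precursors and lie above the open points of mature naive B cells in each row; points at 1 are libraries with no UMI and overlap. The 12 genes above the line were higher in precursors and the 12 below it lower.

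Cell cycle genes rose as a group: 22 of 28 tested were called higher and 0 lower, with a median log2 of 2.49 against -0.01 over all genes. In CPM, 13 of the 22 were higher in all 3 libraries. Rrm2, a subunit of ribonucleotide reductase, stood at 34.4, 245 and 187 CPM against 10.0, 3.65 and 1.36 CPM (log2 4.87 ± 0.67, adjusted p = 0.0043). Mki67, the proliferation antigen Ki-67, stood at 36.6, 209 and 532 CPM against 44.6, 14.6 and 6.80 CPM (log2 3.37 ± 0.86, adjusted p = 0.0353), so adenosine 1 lay the other way in CPM. It stood at 88.7, 229 and 532 CPM against 46.7, 6.29 and 6.80 CPM when the plasma-marker barcodes were left out. Ccnd3, a cyclin known to be needed in pre-B cells of mice, stood at 168, 626 and 509 CPM against 565, 552 and 1157 CPM and was not called (adjusted p = 0.201).

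Genes of mature B cells were lower: 18 of 20 tested were called lower and 0 higher, each in 3 of 3 libraries, with a median log2 of -3.42. All 20 were when the plasma-marker barcodes were left out. Cr2, the complement receptor CD21, stood at 0, 0 and 0 CPM in precursors and 187, 263 and 290 CPM in mature naive B cells, at least 126-fold lower. Fcer2a, the low affinity IgE receptor CD23, stood at 0, 0 and 1.70 CPM against 91.0, 220 and 158 CPM. The chemokine receptor Ccr6, the Fc receptor homologue Fcrl5, the costimulator Icosl and Pacsin1 had no UMI in precursors and were at least 42.6-fold, 37.7-fold, 32.2-fold and 29.1-fold lower. Cd83, Rasgef1b, H2-DMb2, Hcrtr2, Sidt1 and Nr3c2 complete the 12 lower genes, with log2 fold changes from -6.06 to -7.86. Antigen presentation by MHC class II was part of this pattern: H2-Aa stood at 17.2, 307 and 153 CPM against 2174, 3524 and 2877 CPM (log2 -4.48 ± 0.51, adjusted p = 0.00224).

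Signalling and survival genes divided. Of 14 genes of receptor signalling, 5 were called lower and 0 higher, with Cd22, an inhibitory coreceptor, at -3.39 ± 0.30 on the log2 scale (adjusted p = 0.000964) and Ptpn6, Blk, Lyn and Prkcb at -1.09 to -1.67. Btk, Syk and Blnk were among those that did not pass, with log2 values of -0.71, -0.58 and 0.23. Of 7 genes of the Bcl2 family, Bcl2l1 was higher, at 103, 176 and 62.8 CPM against 20.0, 9.13 and 15.0 CPM (log2 3.23 ± 0.43, adjusted p = 0.00353). Bcl2 was lower, at 60.3, 16.4 and 20.4 CPM against 555, 434 and 602 CPM (log2 -3.90 ± 0.51, adjusted p = 0.00335), and Bcl2a1b, whose near copies may share its reads, was lower by -4.98. These survival factors thus moved in opposite directions with no overlap between the classes in either gene. Of 7 homing genes, S1pr1, the receptor that draws B cells into the blood, was lower (log2 -2.87 ± 0.62, adjusted p = 0.0203), and Cxcr4, which holds cells in the marrow, was not called (log2 0.85, adjusted p = 0.172) unless the plasma-marker barcodes were left out (log2 1.03, adjusted p = 0.0356).

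Genes of adenosine handling were read because of the treatment. Of 8 tested, Ada, which breaks down adenosine, was called higher, at 38.7, 18.4 and 28.9 CPM in precursors against 3.64, 4.87 and 1.36 CPM in mature naive B cells (log2 3.21 ± 0.56, adjusted p = 0.00963). Pde7a, a cAMP phosphodiesterase, was called lower (log2 -1.61). Receptors were near the limit of detection: Adora2a had 1, 4 and 5 UMIs in precursors of adenosine 1, adenosine 2 and control 1, Adora2b 1, 4 and 0 UMIs, and Adora1 and Adora3 had 0 in these libraries. Adk, which returns adenosine to AMP, and Entpd1 (CD39) were not called (adjusted p = 0.21 and 0.0542). Of 13 glycolysis and Myc target genes 3 were called higher and 1 lower, of 5 age-associated B cell genes 0 and 3, and of 6 cAMP response and 5 interferon genes none. List counts moved when the plasma-marker barcodes were left out: 27 cell cycle genes and 8 transcription factors were called higher, and of 6 cAMP response genes 3 were called lower. Of receptor signalling genes 6 were then lower, of homing genes 2 were higher and 2 lower, of Bcl2 family genes 2 were higher and 3 lower, of glycolysis and Myc target genes 6 were higher, and of 4 interferon genes 1 was lower.

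The share of precursors was compared between treatments. Of all cells, precursors made up 0.282% (exact 95% interval 0.183 to 0.416) and 0.730% (0.563 to 0.931) with adenosine and 0.520% (0.385 to 0.687) and 0.135% (0.0620 to 0.257) in controls, or 0.506% ± 0.317 and 0.328% ± 0.272 (SD, n = 2 each). The groups overlap, and an exact two-sided permutation test gave p = 0.667. The B lineage held 490 and 789 cells with adenosine and 499 and 94 in controls. Precursors made up 5.10% (exact 95% interval 3.33 to 7.44) and 8.11% (6.30 to 10.2) of it with adenosine. In controls they made up 9.82% (7.35 to 12.8) and 9.57% (4.47 to 17.4). The interval of control 2 covers both adenosine shares. Both adenosine libraries lie below both controls, at 6.61% ± 2.13 and 9.70% ± 0.17 (SD, n = 2 each), with an exact two-sided permutation p of 0.333, the smallest that 2 against 2 libraries can give. The plasma-marker limit was then applied to every B lineage cell, which left 430 and 778 cells with adenosine and 486 and 91 in controls. With all barcodes past it left out the groups overlap, at 5.61% and 8.89% on average (exact permutation p = 0.667). They also overlap with up to 1 Ighd UMI allowed, at 6.94% and 12.4% with adenosine and 16.8% and 11.7% in controls (exact permutation p = 0.667).

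Dividing precursors numbered 6 of 25 and 15 of 64 with adenosine and 22 of 49 in control 1. That is 24.0% and 23.4% against 44.9%, and control 2, with 2 of 9, was under the minimum of 10 cells. With the plasma-marker barcodes left out the shares were 35.7% and 24.2% with adenosine and 44.9% in control 1. With doublets removed they were 24% and 12.5% with adenosine and 39.0% in control 1. In cells thinned to 1000 UMIs they were 0% and 10.9% with adenosine and 26.5% and 11.1% in controls. The share depends on these settings, while control 1 was the highest under each. With 2 libraries against 1 the exact permutation p is 0.667, the smallest possible. With control 2 included the groups overlap (exact permutation p = 1). Control 1 was also the library with most cells in the range with Vpreb1 or Igll1, and the part of this make-up in the dividing share was not tested.

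For genes within precursors, adenosine 1 and adenosine 2 were compared with control 1, whose spread was assumed to be like that of the adenosine libraries. Of 7605 genes tested, 0 (0%) were called by edgeR, 285 had an unadjusted p under 0.05, and the smallest adjusted p was 0.527. DESeq2 called 16 (0.21%), all higher. With control 2 included edgeR also called 0, of 6522. Since none passed, the 4 genes of lowest unadjusted p are given for each direction. Jchain, which joins antibody units and helped to define the plasma-marker barcodes, stood at 15687 and 3272 CPM with adenosine and at 3.40 CPM in control 1 and 22344 CPM in control 2. Without those barcodes it stood at 8.06 and 13.5 CPM with adenosine and 3.40 and 0 CPM in controls. Over all members, control 1, which had none of these barcodes, was the lowest.

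Ly6a, the surface protein Sca-1, stood at 988 and 425 CPM with adenosine and 1.70 and 62.5 CPM in controls, and without plasma-marker barcodes at 0 and 177 CPM with adenosine and 1.70 and 0 CPM in controls. Prg2, an eosinophil granule gene, had no UMI with adenosine once those barcodes were left out. Serpina3g, a protease inhibitor, stood at 16.1 and 62.9 CPM with adenosine and 0 and 15.5 CPM in controls when they were left out. The 4 lower genes were Pcdh11x, Bcat1, Enpep and Pcdh9. Enpep is the aminopeptidase known in mice as the early B cell antigen BP-1. It stood at 15.1 and 10.2 CPM with adenosine and 204 and 78.1 CPM in controls. Bcat1, which transfers amino groups from branched-chain amino acids, stood at 12.9 and 22.5 CPM with adenosine and 195 and 70.3 CPM in controls. Of the 90 Pcdh11x UMIs, all in control 1, 1 cell held 68.

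**Figure D5:**
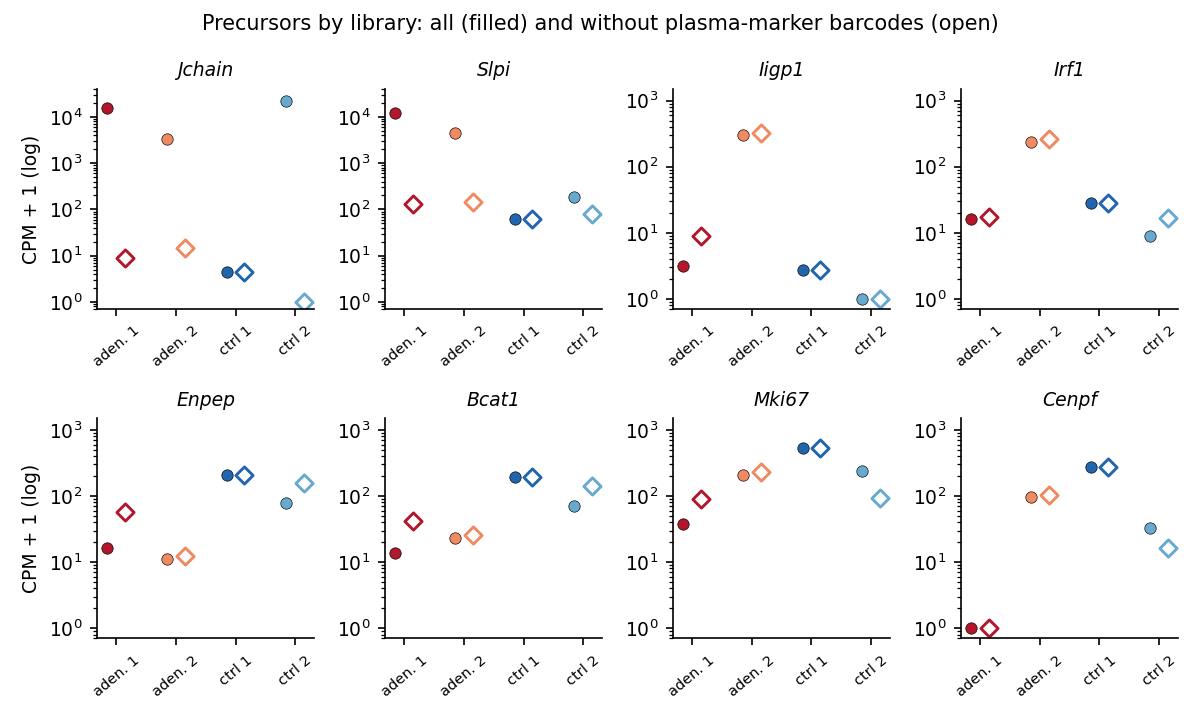
CPM plus 1 (vertical axes, log scale) in the precursors of each library for 8 genes; filled points are all members and open diamonds leave out the plasma-marker barcodes, of which control 1 had none. Jchain and Slpi lose most of their level without those barcodes, Iigp1 and Irf1 are high in adenosine 2 alone, and each adenosine library lies below each control in Enpep and Bcat1.

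Without the plasma-marker barcodes 55 of 7626 genes (0.721%) were called between the adenosine libraries and control 1, 41 higher (0.538%) and 14 lower (0.184%), and with control 2 added to that fit 0 were (smallest adjusted p 0.0688). The genes named here from these calls were chosen after their values were seen. Iigp1, an interferon-induced GTPase, stood at 8.06 and 326 CPM with adenosine and 1.70 and 0 CPM in controls, and Irf1, an interferon response factor, at 16.1 and 260 CPM with adenosine and 27.2 and 15.5 CPM in controls. Gbp2, Ifi47, Ccl5 and Serpina3f were also highest in adenosine 2. Adenosine 1 lay between the controls in Irf1, so these calls rest on 1 library. In mature naive B cells, too, Irf1 was highest in adenosine 2, at 58.3 and 320 CPM with adenosine and 43.5 and 61.6 CPM in controls.

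Immunoglobulin and neutrophil genes were also among the higher. Iglc2, a lambda light chain, stood at 8.06 and 543 CPM with adenosine and 10.2 and 92.9 CPM in controls. S100a8 stood at 8610 and 8902 CPM with adenosine and 3425 and 2648 CPM in controls, with the other neutrophil markers as given above, and the part of neutrophil RNA in these calls was not tested. Lower with adenosine in that fit were Enpep, at 56.4 and 11.2 CPM with adenosine and 204 and 155 CPM in controls (log2 -3.03 ± 0.58, adjusted p = 0.000119), Bcat1 (log2 -2.68), Mki67 (log2 -1.59) and Cenpf (log2 -1.94). Control 2 was not in that fit: Mki67 stood at 88.7 and 229 CPM with adenosine and 532 and 92.9 CPM in controls and Cenpf at 0 and 103 CPM with adenosine and 270 and 15.5 CPM in controls, so both overlap once control 2 is counted. Enpep and Bcat1 do not overlap, and each had an adjusted p of 0.069 by edgeR with control 2 included. Both were named for a low p against control 1, which is part of this comparison, so the lack of overlap only describes them. The share of all genes without overlap was not measured.

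Within the cells with Vpreb1 or Igll1, Enpep stood at 71.8 and 21.5 CPM with adenosine and 217 and 199 CPM in controls, from 8 and 22 cells with adenosine and 39 and 3 in controls. These levels rest on few cells: over all members, the 7 Enpep UMIs of adenosine 1 came from 1 cell, adenosine 2 held 5 UMIs in 3 cells, control 1 held 120 UMIs in 20 cells and control 2 held 10 UMIs in 2 cells. Bcat1 stood there at 51.3 and 47.2 CPM with adenosine and 206 and 179 CPM in controls. In both genes the adenosine libraries lay below the controls, and Vpreb3-only cells had no Enpep UMI in any library. The list values that follow are against control 1 alone, which had the highest dividing share, and leave out control 2. In all members, 33 of 35 cell cycle genes had a negative log2 fold change, with a median of -0.90 against 0.03 over all genes. Without the plasma-marker barcodes the cell cycle median was -0.64. Other lists also moved 1 way in all members: 8 of 8 interferon, 9 of 9 neutrophil and 14 of 16 mature B cell genes tested had a positive log2 fold change. Slpi was the gene whose adenosine change differed between precursors and mature naive B cells when control 2 was included (1 of 8090 genes, 0.0124%, 490 at an unadjusted p under 0.05), and its level lay in the plasma-marker barcodes. The libraries compared differ in their share of cells with Vpreb1 or Igll1, and how much of these values follows that share was not tested.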

How the data were processed

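The deposited values are raw counts of UMIs, by gene and barcode, made by the authors with Cell Ranger 7.0.0 on build mm10, per the submitters' processing notes. Barcodes with under 200 genes or at least 10% mitochondrial UMIs were left out. Members and gene lists were chosen with earlier results of these data known. Counts were summed per library and class, in classes of at least 10 cells, and tested with edgeR 4.0.16 (R 4.3.3; filterByExpr, TMM, quasi-likelihood, Benjamini-Hochberg at 0.05). Genes of the rule were left out of class comparisons. Alternatives were DESeq2 1.42.0, other scalings, no filter, Scrublet (scanpy 1.11.5) doublet removal and leaving out libraries. Genes were named by size: up to 12 a direction past the threshold, with at least 50 CPM and the same direction in every library, or, where none passed, 4 a direction by p, beside list members and stage genes. A 0 was read as 3 counts over the group for bounds. Intervals are exact 95% and cover counting error only. Scrublet's automatic threshold marked 0% to 1.95% of barcodes, so the top scores were removed instead, taking 0, 16, 8 and 0 members of adenosine 1, adenosine 2, control 1 and control 2.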

Additional observations from a re-analysis of the deposited data

Results flagged for a closer look

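Slpi, which encodes a secreted protease inhibitor, differed between precursors and mature naive B cells in its adenosine change, with control 2 included, by 7.37 ± 0.74 on the log2 scale (edgeR interaction, adjusted p = 0.000333). In precursors it stood at 12190 and 4369 CPM with adenosine and 61.1 and 187 CPM in controls, and in mature naive B cells at 201 and 169 CPM with adenosine and 156 and 815 CPM in controls. The plasma-marker barcodes held 16583 and 47613 CPM with adenosine (11 and 2 barcodes) and 299 CPM in control 2 (2 barcodes). Over all members, 1 cell held 2104 of 5664 Slpi UMIs in adenosine 1. In adenosine 2, 1 cell held 2000 of 2136, so that level rests on 1 cell. With them left out, precursors held 129 and 141 CPM with adenosine and 61.1 and 77.4 CPM in controls.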

How the results depend on the processing

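The share of precursors among all cells changed sign: its log2 ratio of 0.63 ranged from -0.22 to 1.90 with 1 library left out (-0.22 without adenosine 2, -0.04 without control 2) and was -0.33 in cells thinned to 1000 UMIs. Calls between precursors and mature naive B cells (1214) numbered 2161 with no filter on low counts, 2036 without the plasma-marker barcodes, 2149 with up to 1 Ighd UMI allowed, and 528 to 1978 with 1 library left out. Of the alternative values of the 79 named genes, 948 kept direction and side of the threshold, 23 passed it newly, 44 no longer passed and 0 reversed. Calls between cells with Vpreb1 or Igll1 and Vpreb3-only cells (368) numbered 28 with DESeq2, 234 with no filter, 242 with RLE size factors, 200 with library size alone, 0 with doublets removed, 152 with no library block and 172 with up to 1 Ighd UMI allowed. There, Rag1 ranged from -2.21 to 0.39 with 1 library left out, and Il7r was 0.032 with up to 1 Ighd UMI allowed. Between treatments (0 called) DESeq2 called 16, no filter 121, library size alone 7 and leaving out plasma-marker barcodes 55, and Jchain was -0.19 with up to 1 Ighd UMI allowed. With control 2 and the replicate block, 0 of 6522 were called. The cause was not tested. Settings on plasma-marker barcodes, Ighd and control 2 were chosen after seeing the data. The interaction was not run as planned, since control 2 held 9 precursors, which also limits its shares.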
